A study of Mus musculus with 12 samples.

Results

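The genes described are 10 that handle fatty acids at the cell surface, in the cytosol and on the lipid droplet, chosen by symbol from the 57180 genes of the deposited tables: Cd36, Vldlr, Fabp1, Fabp2, Plin2, Plin4, Plin5, Cidea, Cidec and G0s2. Of these, 9 had enough reads to be tested (5 or more reads once libraries were brought to the median size, in 3 livers or more), and Cidea did not. RNA was measured in the livers of 12 mice, with 3 mice in each of 4 groups named by genotype (Het or KO) and sex. All mice lacked Csa (Ercc8), the transcription-coupled repair gene mutated in a form of Cockayne syndrome. All had also received AAV9-CSA, a viral vector that carries human ERCC8 cDNA under the ubiquitous chicken β-actin promoter, by injection into the brain ventricles within a day or so of birth. The Het mice (Csa-/- Xpa+/-) were littermates euthanized at ages matched to the KO mice, and the KO mice were taken at a humane endpoint of severe hunching and tremor. The age of each mouse was not used here. The sources give 2 genotypes for KO mice: the series description and the methods write Csa-/- Xpa+/+, while the study's results describe these animals as CX mice, which lack both genes, so the groups are called KO and Het throughout. Xpa had 3.10 to 6.34 CPM (counts scaled to a common total per liver and for library composition) in Het and 0.992 to 1.83 CPM in KO, a log2 fold change of -1.83 (SE, the standard error, 0.163; adjusted p = 4.15e-05). Xpa RNA was thus lower in KO than in Het, the direction of the CX description and opposite to that of Xpa+/+ against Xpa+/-. Endpoint illness and genotype cannot be told apart in this design, since every KO mouse was at the endpoint and no Het mouse was. Assigned counts ran from 30044812 to 43634073 per liver. The summed level of 8 hepatocyte markers, albumin among them, was 68562 to 144613 CPM across the livers, as in the labelled tissue.

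Hepatocytes take up fatty acids through surface proteins such as CD36 and, within lipoprotein particles, through receptors of the LDL receptor family such as VLDLR. Inside the cell, fatty acid binding proteins (FABP1, the main one in liver, and FABP2, best known from intestine) carry them to be oxidised, signalled with or esterified. Esterified fat is stored in lipid droplets, which are coated by perilipins (PLIN2, PLIN4, PLIN5), enlarged by CIDE proteins (CIDEA, CIDEC) and emptied by the lipase ATGL (gene Pnpla2), which G0S2 inhibits. Many of these genes are classical targets of PPARα, the nuclear receptor that senses fatty acids and binds with RXR to a repeated element called DR1.

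The 4 members that fell in KO livers lie on separate chromosomes. The 200 bases before their annotated transcript starts are shown because those genes changed in the same direction. All positions are on GRCm39, the build used for the deposited tables, with transcript starts from GENCODE M39. Each sequence is written along the gene's own strand, and capitals mark a match to DR1, taken as AGGTCA and AGGTCA with 1 free base between them, with at most 2 mismatches on either strand. Fabp1 (ENSMUSG00000054422.8) is at chr6:71176809-71182016 on the plus strand and its window is chr6:71176609-71176808. Fabp2 (ENSMUSG00000023057.6) is at chr3:122688721-122693155 on the plus strand and its window is chr3:122688521-122688720. Plin2 (ENSMUSG00000028494.13) is at chr4:86565912-86588459 on the minus strand and its window is chr4:86588460-86588659. G0s2 (ENSMUSG00000009633.4) is at chr1:192949563-192956177 on the minus strand and its window is chr1:192955526-192955725. The transcript start used for G0s2 lies inside the annotated span of the gene, so its window lies within that span.
Fabp1: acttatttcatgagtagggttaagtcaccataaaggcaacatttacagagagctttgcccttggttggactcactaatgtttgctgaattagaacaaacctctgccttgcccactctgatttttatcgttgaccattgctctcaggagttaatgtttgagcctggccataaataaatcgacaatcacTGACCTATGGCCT
Fabp2: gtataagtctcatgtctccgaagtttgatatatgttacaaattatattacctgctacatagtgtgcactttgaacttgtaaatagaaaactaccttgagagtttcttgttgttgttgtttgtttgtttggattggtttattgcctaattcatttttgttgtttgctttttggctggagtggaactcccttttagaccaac
Plin2: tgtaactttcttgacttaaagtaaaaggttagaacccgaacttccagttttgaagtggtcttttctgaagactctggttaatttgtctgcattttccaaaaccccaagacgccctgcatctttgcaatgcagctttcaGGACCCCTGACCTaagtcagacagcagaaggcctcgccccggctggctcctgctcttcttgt
G0s2: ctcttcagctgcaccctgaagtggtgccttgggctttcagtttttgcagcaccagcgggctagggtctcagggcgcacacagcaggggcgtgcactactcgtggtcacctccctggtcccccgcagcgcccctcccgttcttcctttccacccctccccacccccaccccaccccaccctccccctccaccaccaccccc

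Within 250 bases before the start, DR1 matches were found in 2 of the 10 members, against 2.91% of 21757 genes searched in the same way. The Fabp1 match had 1 mismatch, ended at the base before the annotated start and read on the opposite strand. The Plin2 match had 2 mismatches and lay 50 to 62 bases before the start, also on the opposite strand. In a wider window of 2000 bases with at most 1 mismatch, only Fabp1 of the 10 held a match, against 3.88% of genes. The letters TATAAA on the gene's strand (8.04% of genes) and the HNF1 letters GTTAAT and ATTAAC with 1 free base between them and at most 2 mismatches, on either strand (1.16% of genes) were in none of the 10 windows of 250 bases. The printed window of Fabp2 was the poorest in G and C of the 4, at 34%, and that of G0s2 the richest, at 67.5%, against a median of 54.5% over all promoters. These are matches of letters in short windows, and they do not show that any factor bound there.

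Averaged over the sexes, 5 of the 9 tested members changed between KO and Het livers (adjusted p below 0.05 in the edgeR quasi-likelihood test, Benjamini-Hochberg over all tested genes), where 22.4% of the 19350 tested genes did. Fabp1, Fabp2, Plin2 and G0s2 were lower in KO (10.2% of all tested genes were called lower), and Cd36 was higher (12.2%). For these 4 lower genes, every KO liver lay below every Het liver, a separation in that direction found in 4.64% of tested genes. The median log2 fold change of the 9 members was -1.28, beside 0.018 over all tested genes. The members were chosen with earlier results of these data known, so these comparisons are no test of the set. Vldlr, Plin4, Plin5 and Cidec did not pass. In whole liver, fewer cells of a type and less RNA per cell cannot be told apart.

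**Figure D1:**
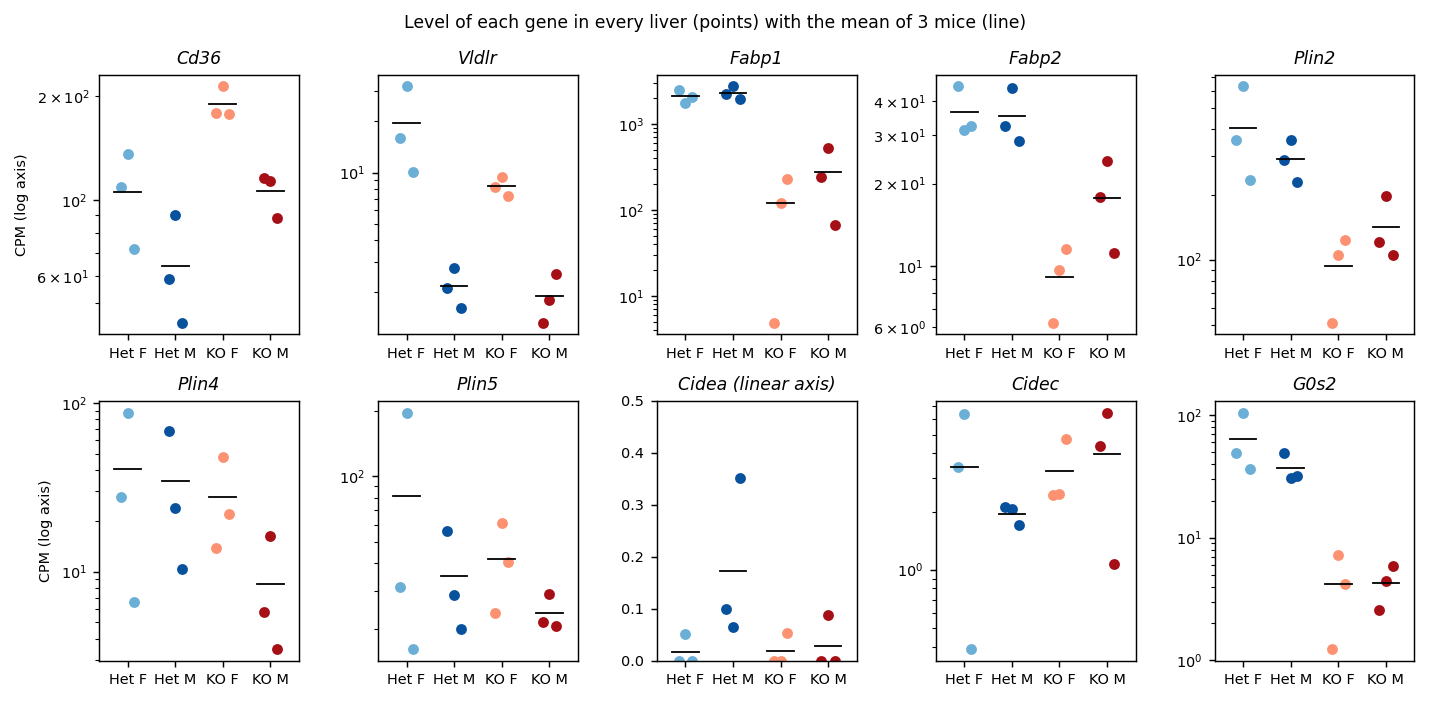
Level of each of the 10 genes in every liver, in CPM on log axes except for Cidea, which is on a linear axis because it has zeros; points are single mice, lines are means of 3 mice, and colours mark the 4 groups. Fabp1, Fabp2, Plin2 and G0s2 sit lower in all KO livers than in any Het liver, and Vldlr is higher in all females than in any male.

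Among the uptake genes, Cd36 (ENSMUSG00000002944.16, chr5:17986432-18094067, minus strand) encodes the scavenger receptor and fatty acid translocase. Its level was 109, 135.6 and 71.9 CPM in the Het females, 58.7, 90.0 and 43.9 CPM in the Het males, 179, 214 and 177 CPM in the KO females and 116, 113 and 88.2 CPM in the KO males. All 3 KO females were above all Het females (as for 15.8% of tested genes), while the lowest KO male was just below the highest Het male. Over both sexes Cd36 was 1.72-fold higher in KO, a log2 fold change of 0.78 (SE 0.188, adjusted p = 0.0126 by edgeR). Within females the log2 fold change was 0.85 (SE 0.265, adjusted p = 0.0601) and within males 0.72 (SE 0.265, adjusted p = 0.1251), so neither sex alone passed the threshold, although the female value did without Het_M_125 (adjusted p = 0.0428) and by DESeq2 (adjusted p = 0.0284). The change in males minus that in females was -0.13 (SE 0.374, adjusted p = 0.937).

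CD36 is also made by macrophages and endothelial cells, so their markers are given beside it. Over both sexes, 7 of 12 macrophage markers were higher in KO and none was lower, where 12.2% of all tested genes were called higher. Among the 7 were Gpnmb (log2 fold change 3.74) and Trem2 (2.11), both known from lipid-laden macrophages. In females only those 2 of the 12 were called higher, in males 4 were, and none was lower in either sex. Of all 19350 tested genes, 1149 were called higher in females and 865 in males. The summed level of the 12 markers ran from 299 to 373 CPM in Het females, 143 to 192 CPM in Het males, 363 to 607 CPM in KO females and 203 to 551 CPM in KO males. Of 10 endothelial markers, 4 were lower in KO over both sexes (Kdr, Stab1, Clec4g and Oit3), beside 10.2% of all tested genes, and none was higher. In females 2 were lower and 1 was higher, Vwf, at a log2 fold change of 2.92 (adjusted p = 0.0489) with overlapping groups, and in males none was called. Their summed level ran from 352 to 446 CPM in Het females, 239 to 333 CPM in Het males, 250 to 507 CPM in KO females and 191 to 318 CPM in KO males. The part of these cells in the Cd36 difference was not tested. The 3 genes whose pattern over the 12 livers was nearest to that of Cd36 were Impdh1, Cerkl and As3mt, with root mean square differences of 0.28 on the centred log2 CPM scale.

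Vldlr (ENSMUSG00000024924.15, chr19:27193862-27231631, plus strand), which encodes the receptor for triglyceride-rich lipoproteins, differed between the sexes among Het livers. Its level was 16.1, 32.1 and 10.2 CPM in the Het females and 2.10, 2.76 and 1.60 CPM in the Het males. In the KO females it was 8.27, 9.41 and 7.29 CPM, and in the KO males 1.31, 1.78 and 2.52 CPM. All females of either genotype were above all males. Among Het livers it was 8.82-fold lower in males, a log2 difference of -3.14 (SE 0.402, adjusted p = 0.00285 by edgeR), and it was the 1 member called in that contrast, in which 0.460% of tested genes were called lower in males. Without Het_F_115, the highest liver, this difference was -2.58 and still passed (adjusted p = 0.00357). Over both sexes, KO minus Het gave a log2 fold change of -0.71 (SE 0.270, adjusted p = 0.0803). In females the 3 KO livers lay below the 3 Het livers (as for 14.7% of tested genes), with a log2 fold change of -1.22 (SE 0.369, adjusted p = 0.0541), and in males it was -0.20 (SE 0.390, adjusted p = 0.798). The difference between those changes was 1.01 (SE 0.544, adjusted p = 0.584). Calls for Vldlr rest on the choice of animals and tool: without Het_F_126 the value over both sexes was -0.88 (adjusted p = 0.0230), and without Het_F_115 it was -0.44 (adjusted p = 0.160). DESeq2 called it over both sexes (adjusted p = 0.0461) and in females (adjusted p = 0.0178). The female value also passed without Het_F_126 (-1.55, adjusted p = 0.0277) and when scaled by library size only (adjusted p = 0.0338), and was -0.66 without Het_F_115 (adjusted p = 0.186).

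Of the binding proteins, Fabp1 had the lowest log2 fold change of all members over both sexes and in females, while in males that of G0s2 was slightly lower. It had 2483, 1746 and 2081 CPM in the Het females and 2237, 2737 and 1948 CPM in the Het males. The KO females had 4.90, 121 and 232 CPM, and the KO males 239, 530 and 67.5 CPM. All KO livers were far below the lowest Het liver, and KO_F_108 was far below the other KO livers, with 158 counts in all. The fall over both sexes was 12.1-fold, a log2 fold change of -3.59 (SE 0.770, adjusted p = 0.0100 by edgeR), and only 25 of the 19350 tested genes had a lower log2 fold change. In females the log2 fold change was -4.14 (SE 1.12, adjusted p = 0.0438) and in males -3.05 (SE 1.06, adjusted p = 0.118), and the change in males minus that in females was 1.09 (SE 1.39, adjusted p = 0.827). The size and the calls within each sex moved with single livers. A liver of the other sex is not in such a contrast, but it enters the estimate of spread shared by all 12 livers. Without KO_F_108 the result in males passed (adjusted p = 0.0188), as it did by DESeq2 (adjusted p = 0.0272), and the value over both sexes was -3.32. On deposited TPM with a pseudocount of 0.1, limma gave -4.40 over both sexes (adjusted p = 0.0109) and -5.41 in females (adjusted p = 0.0319). Without KO_F_123 the value in females was -5.07 (adjusted p = 0.0405). Without KO_M_122 the value in males was -3.91 (adjusted p = 0.119), and without any one of Het_F_111, Het_F_115, Het_F_126, Het_M_119, Het_M_125, Het_M_137, KO_F_112 or KO_M_118 the result in females no longer passed (adjusted p 0.0572 to 0.109).

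Fabp2 had 45.2, 31.4 and 32.5 CPM in the Het females and 32.4, 44.8 and 28.6 CPM in the Het males. In KO livers it had 6.23, 9.72 and 11.5 CPM in the females and 17.9, 24.2 and 11.2 CPM in the males. The genotypes did not overlap in either sex (KO males below Het males was seen for 15.4% of tested genes), and 2 of the 3 KO males lay above all KO females. Over both sexes Fabp2 was 2.80-fold lower in KO, a log2 fold change of -1.48 (SE 0.213, adjusted p = 9.51e-04 by edgeR). The log2 fold change was -1.98 in females (SE 0.306, adjusted p = 0.00490) and -0.99 in males (SE 0.297, adjusted p = 0.0686), where it passed without KO_F_108 (adjusted p = 0.0469) or without KO_M_122 (adjusted p = 0.0421), and by DESeq2 (adjusted p = 0.0199). The difference between the sexes in this change, 0.995 (SE 0.418), had an unadjusted p of 0.0355 and an adjusted p of 0.506. Markers of intestinal epithelium, the usual site of Fabp2, were near 0 in these livers, with 6 of 8 too low to test and the other 2 not passing, and the summed level of the 8 was 5.03 to 13.2 CPM.

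The ratio between the binding proteins changed as well. Per unit of transcript length (deposited TPM), Fabp1 was 110.7 to 139 times Fabp2 in Het livers and 1.58 to 43.96 times Fabp2 in KO livers, a comparison chosen after the values were seen. Every KO liver was below every Het liver. The nearest patterns to Fabp1 were those of Hectd2os, a non-coding transcript, Sult2a8, a liver sulfotransferase, and Inhbe, a secreted hepatokine subunit, with root mean square differences of 0.704, 0.954 and 0.980. For Fabp2 they were Lipc (hepatic lipase), Lonp2 (a peroxisomal protease) and Lama1 (a laminin chain), with 0.291, 0.303 and 0.306.

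Of the droplet coat genes, only Plin2 changed by this test. Plin2, which encodes the perilipin that coats most hepatocyte droplets, had 359, 633 and 233 CPM in the Het females and 290, 358 and 230 CPM in the Het males. KO females had 51.1, 105 and 123.5 CPM and KO males 120, 197 and 105 CPM. The highest KO liver was below the lowest Het liver. Plin2 was 3.02-fold lower over both sexes, a log2 fold change of -1.59 (SE 0.291, adjusted p = 0.00389 by edgeR). It was -2.13 in females (SE 0.418, adjusted p = 0.0135) and -1.05 in males (SE 0.406, adjusted p = 0.143), with a difference between them of 1.08 (SE 0.569, adjusted p = 0.582). In a fit of the 6 female livers alone, the female value of -2.14 did not pass (adjusted p = 0.0606). The nearest patterns were those of Adtrp, Cyp2j5 and Mgll (root mean square differences 0.329, 0.339 and 0.347), the last the lipase that finishes triglyceride breakdown. Among the members, Plin2 and Fabp2 were the most alike pair, at 0.397.

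Plin4 (ENSMUSG00000002831.16, chr17:56406617-56416931) and Plin5 (ENSMUSG00000011305.12, chr17:56418446-56424610) lie 1515 bp apart on the minus strand of chromosome 17. Plin4, a long perilipin best known from adipocytes, had 27.8, 87.8 and 6.63 CPM in the Het females and 68.5, 24.0 and 10.4 CPM in the Het males. KO females had 13.9, 47.7 and 21.96 CPM and KO males 5.73, 16.2 and 3.48 CPM. Het livers spanned more than the distance between the genotypes, and the log2 fold change over both sexes was -1.28 (SE 0.691, adjusted p = 0.214), with -0.55 in females (SE 0.962) and -2.01 in males (SE 1.001), neither of which passed. Single Het livers moved it: over both sexes it was -0.67 without Het_F_115 and -0.80 without Het_M_119, and in males it was -1.03 without Het_M_119. Plin5, which ties droplets to mitochondria in oxidative tissues, had 31.3, 196 and 16.2 CPM in the Het females, 56.1, 28.5 and 19.99 CPM in the Het males, 23.7, 60.9 and 40.6 CPM in the KO females and 21.6, 29.0 and 20.6 CPM in the KO males. One Het female, Het_F_115, stood highest for both genes. The Plin5 log2 fold change was -0.76 over both sexes (SE 0.562, adjusted p = 0.366), and without Het_F_115 it was 0.12. Het_F_115 was also the highest Het liver for Cd36, Vldlr, Plin2, Cidec and G0s2, and the lowest Het liver for Fabp1. Next to Plin5, 1673 bp further on, Lrg1, an acute-phase glycoprotein gene on the same strand, was higher in KO with a log2 fold change of 1.61 (SE 0.180, adjusted p = 1.98e-04). Plin4 shares part of its position with Hdgfl2 on the opposite strand (0.16, adjusted p = 0.212), and since the strand setting of the counting was not given in the sources used here, reads in the shared stretch are uncertain.

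No difference was called for either CIDE gene. Cidea (ENSMUSG00000024526.10, on chromosome 18) had 0, 2 and 0 counts in the Het females, 3, 2 and 11 in the Het males, 0, 0 and 2 in the KO females and 0, 3 and 0 in the KO males. Only 1 liver, Het_M_137, had more than 3 counts, so no fold was computed, and a difference was not detectable at this depth. Cidec (ENSMUSG00000030278.12, chr6:113400691-113412721), whose protein fuses droplets in fat cells and in fatty liver, had 3.41, 6.43 and 0.389 CPM in the Het females and 2.10, 2.05 and 1.70 CPM in the Het males. KO females had 2.45, 2.48 and 4.75 CPM and KO males 4.39, 6.50 and 1.07 CPM, all within or next to the Het range. Its log2 fold change was 0.47 over both sexes (SE 0.550, adjusted p = 0.575), with -0.07 in females and 1.01 in males. Cidea and Cidec are best known from adipocytes, whose genes Adipoq, Lep, Retn and Plin1 were all too low to test in these livers. Of the 5 adipocyte markers tested of 9, 1 was higher in KO over both sexes, Fabp4, which macrophages also make. Over all tested genes, 12.2% were called higher. Cfd, the adipocyte gene for adipsin, was called lower in KO males (adjusted p = 0.0161) and higher in Het males than in Het females (adjusted p = 0.0316). It had 1, 0 and 0 counts in the Het females, 6, 8 and 30 in the Het males, 0 in all KO females and 2, 0 and 0 in the KO males. Het_M_137 thus held the most counts of both Cidea and Cfd, and the part of fat tissue in the Cidea counts was not tested. The summed level of the adipocyte list, mostly Pck1, a gene also of hepatocytes, was 1257 to 5037 CPM in Het and 3478 to 9278 CPM in KO livers.

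G0s2, the inhibitor of ATGL, was nearly as reduced as Fabp1 over both sexes. It had 49.0, 104 and 36.4 CPM in the Het females and 49.1, 30.7 and 31.5 CPM in the Het males. KO females had 1.24, 7.28 and 4.16 CPM and KO males 2.58, 4.46 and 5.86 CPM, so the highest KO liver was well below the lowest Het liver. The fall over both sexes was 11.3-fold, a log2 fold change of -3.49 (SE 0.441, adjusted p = 7.45e-04 by edgeR), and 27 of the tested genes had a lower log2 fold change. G0s2 was the 1 member called in males (-3.10, SE 0.613, adjusted p = 0.0167), where 2.98% of tested genes were called lower. In females, where 5.10% of tested genes were called lower, it was 1 of 4 members called, with Fabp1, Fabp2 and Plin2 (-3.89, SE 0.634, adjusted p = 0.00760). Without KO_M_118 the male result was -2.84 (adjusted p = 0.0659) and without KO_M_122 -3.13 (adjusted p = 0.0543). Without KO_F_112 the female value was -4.51, and it still passed.

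**Figure D2:**
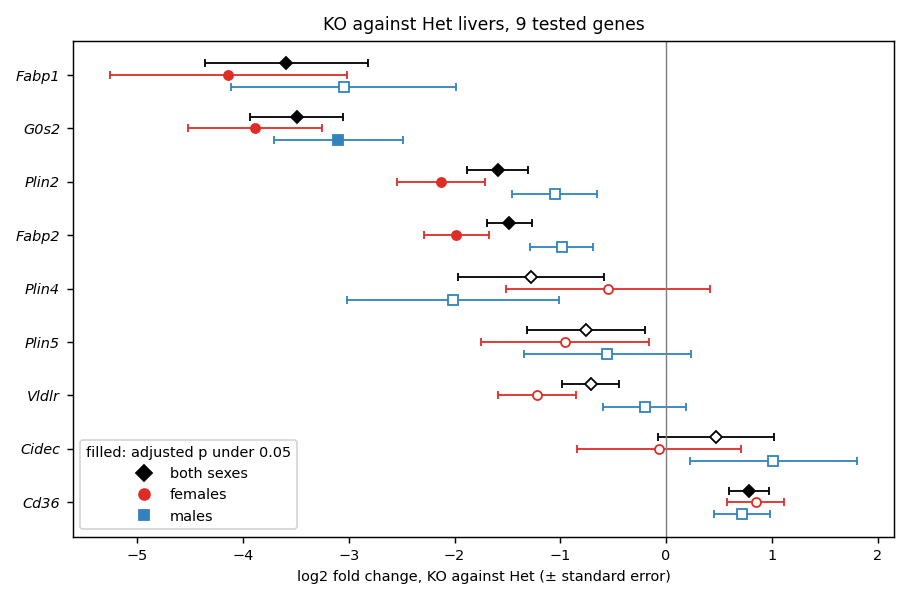
Log2 fold change of KO against Het livers (x axis) for the 9 tested genes (y axis), as the mean over both sexes (diamonds), in females (circles) and in males (squares); bars are standard errors and filled symbols have an adjusted p under 0.05. Fabp1 and G0s2 lie near -3.5 over both sexes, and Cd36 is the 1 filled symbol on the right.

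The target of G0S2 moved the other way. Pnpla2, which encodes ATGL, had 40.1, 42.8 and 30.2 CPM in the Het females, 43.4, 35.8 and 37.1 CPM in the Het males, 181, 78.8 and 81.2 CPM in the KO females and 97.3, 70.5 and 54.0 CPM in the KO males. All KO livers were above all Het livers, and the log2 fold change was 1.26 (SE 0.223, adjusted p = 0.00309 by edgeR). Abhd5, the activator of ATGL, did not pass (-0.07, adjusted p = 0.677). In TPM, Pnpla2 was 0.201 to 0.651 times G0s2 in Het livers and 4.80 to 74.5 times G0s2 in KO livers, a ratio chosen after the values were seen. The order of the 2 genes was thus opposite in each KO liver to that in each Het liver. KO_F_108 was the lowest KO liver for Fabp1, Fabp2, Plin2 and G0s2 and the highest for Pnpla2. G0s2 lies within the span of Lamb3 on the opposite strand (-0.24, adjusted p = 0.595), and its neighbour Hsd11b1, 3074 bp away on the same strand, had a log2 fold change of -0.22 (adjusted p = 0.409). The patterns nearest to G0s2 were those of the non-coding Gm26588, the lipase gene Lipg and the carboxylesterase gene Ces1f (root mean square differences 0.682, 0.821 and 0.823).

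Across the sexes, no member was called for a different genotype effect in males and females. In that contrast 0 of the 9 members passed by edgeR, and 1, Fabp2, had an unadjusted p under 0.05, while 0.0465% of tested genes were called and 9.28% had an unadjusted p under 0.05. DESeq2 and limma on the deposited TPM also called none of the members. The 4 members called over both sexes as lower had log2 values that were 0.79 to 1.09 higher in males than in females, with standard errors of 0.418 to 1.39. A p above the threshold does not show that the sexes responded alike.

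On the TPM scale, which allows levels of different genes to be set side by side, Fabp1 led in Het livers with 3368 to 4751 TPM. Plin2 followed with 102 to 293 TPM, then G0s2, Fabp2 and Cd36, whose ranges overlapped. Plin5, Plin4, Cidec, Vldlr and Cidea had lower medians and each overlapped the next. The Plin5 range, up to 82.96 TPM in Het_F_115, also overlapped those of G0s2, Fabp2 and Cd36. Fabp1 was the 1 gene whose lowest Het liver was above the highest of the next gene. In KO livers the order began with Fabp1 (9.73 to 901 TPM), Cd36 (30.8 to 72.2 TPM) and Plin2 (26.0 to 83.5 TPM), and these ranges overlapped. Plin2 exceeded Cd36 in all 6 Het livers, and in KO_F_108, KO_F_112 and KO_F_123 Cd36 exceeded Plin2, while in the 3 KO males Plin2 exceeded Cd36.

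The genes beside the members on the chromosomes did not all move as the members did. The tested neighbours of Fabp1, Thnsl2 (0.07, adjusted p = 0.706) and Smyd1 (0.15, adjusted p = 0.536), did not pass, nor did those of Plin2, Haus6 (0.02, adjusted p = 0.913) and Dennd4c (-0.17, adjusted p = 0.0830). Pde5a, 35698 bp from Fabp2, was lower (-0.58, adjusted p = 0.0281), and Arln on its other side did not pass (-0.13, adjusted p = 0.491). Gnai1, on one side of Cd36, was lower (-0.85, adjusted p = 0.0219) while Cd36 was higher, and Sema3c on the other side did not pass (0.10, adjusted p = 0.868). Smarca2 beside Vldlr (-0.46, adjusted p = 0.0396), Impa2 beside Cidea (-1.58, adjusted p = 0.00650) and Gm37691 beside G0s2 (-0.92, adjusted p = 0.00905) were also lower. Pum3, Ubxn6, Tubb6, Gm44280 and Jagn1, beside Vldlr, Plin4, Cidea and Cidec, did not pass.

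The rest of the fatty acid pathway was mixed, with counts and values given over both sexes unless stated. Of the 19 tested genes of fatty acid transport and activation, 3 were higher in KO (Acsl4, Fabp4 and Fabp7) and 4 lower (Cav1, Cav2, Acsl1 and Scp2), with a median log2 fold change of -0.18. Acsl1, the main acyl-CoA synthetase of liver, fell by 1.55 on the log2 scale (SE 0.204, adjusted p = 5.21e-04) and Scp2, a peroxisomal sterol carrier and thiolase, by 1.14 (SE 0.150, adjusted p = 5.11e-04). The transporters Slc27a2 (-0.31, adjusted p = 0.162) and Slc27a5 (0.30, adjusted p = 0.0535) and the binding protein Fabp5 (-0.18, adjusted p = 0.739) did not pass. Fabp4, the binding protein of adipocytes and macrophages, was higher by 0.71 (adjusted p = 0.0340), a call lost without any one of Het_F_111, Het_F_126, Het_M_125, Het_M_137, KO_F_112 or KO_M_122 (adjusted p 0.0644 to 0.0790).

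Of 13 tested droplet coat, growth and budding genes, 1 was higher and 4 were lower (median -0.19), beside 12.2% and 10.2% of all tested genes. Hilpda, a hypoxia-induced droplet protein that also inhibits ATGL, was the higher one, at 2.39 (SE 0.512, adjusted p = 0.00945). It had 0.651 to 3.21 CPM in Het livers, 22.6, 47.8 and 4.77 CPM in the KO females and 2.04, 3.73 and 2.41 CPM in the KO males, with a change in males minus that in females of -2.36 (adjusted p = 0.527). The budding gene Fitm2 fell by 0.74 (adjusted p = 7.40e-04) and the droplet hydrolase gene Ldah by 0.64 (adjusted p = 0.00365). Plin3 (0.12, adjusted p = 0.469), Cideb (-0.40, adjusted p = 0.0523), Bscl2, the seipin gene (-0.19, adjusted p = 0.137), and Hsd17b13 (0.10, adjusted p = 0.613) did not pass.

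Of 13 triglyceride synthesis genes, 2 were higher and 2 lower (median 0.086), beside 12.2% and 10.2% of all tested genes. Mogat2, a monoacylglycerol acyltransferase gene best known from intestine, had 0.0651 to 0.310 CPM in Het livers and 1.80 to 8.47 CPM in KO livers, with a log2 fold change of 4.28 (SE 0.309, adjusted p = 7.25e-06). Its relative Mogat1 (-2.08, adjusted p = 0.00515) and the final acyltransferase Dgat2 (-0.55, adjusted p = 0.0182) were lower. The Mogat1 call, at a level of 0.0290 to 1.30 CPM, was lost in TPM (adjusted p = 0.0845 with a pseudocount of 1) and in both scaled count tables. Gpam (-0.27, adjusted p = 0.243) and Dgat1 (0.22, adjusted p = 0.246) did not pass. Among 13 triglyceride breakdown genes, 1 was higher (Pnpla2) and 6 were lower (median -0.37), beside those same shares of all tested genes. The 6 were Mgll (-1.68, adjusted p = 0.00147), Lipc (-1.67, adjusted p = 7.40e-04), Aadac (-1.23, adjusted p = 2.69e-04), Ces1d, Ces1f and Ces3a. Hormone-sensitive lipase, Lipe (0.16, adjusted p = 0.480), and Pnpla3 (-0.17, adjusted p = 0.883) did not pass.

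Ppara, the gene for PPARα, was lower in RNA, and the part of PPARα in the fall of the members was not tested. Ppara had 129 to 241 CPM in Het livers and 53.1 to 125.1 CPM in KO livers, with a log2 fold change of -1.37 (SE 0.225, adjusted p = 0.00207 by edgeR). Of the 8 receptors and partners tested, 3 were lower, the others being Rxra and Creb3l3 (-1.02, adjusted p = 0.00460), and none was higher (median 0.013). Over all tested genes, 10.2% were called lower and 12.2% higher. Pparg (-0.09, adjusted p = 0.725) and Ppargc1a (1.63, adjusted p = 0.0704) did not pass. Of 22 PPARα target genes, 13 were lower over both sexes, beside that 10.2% of all tested genes, and 1, Cyp4a31, was higher (median -0.56). Within females 12 were called lower (median -0.74), where 5.10% of all tested genes were. Within males 1 was called lower (median -0.37), where 2.98% of all tested genes were. None of the 22 was called for a difference between the sexes. Among the lower ones were the β-oxidation gene Hadhb (-0.75, adjusted p = 0.00440) and the hormone gene Fgf21 (-1.92, adjusted p = 0.0230), whose call was lost without Het_M_125 (adjusted p = 0.0808) or KO_F_108 (adjusted p = 0.0508). Other classical targets did not pass, including Cpt1a (-0.04, adjusted p = 0.902), Pdk4 (0.58, adjusted p = 0.509), Cyp4a14 (0.30, adjusted p = 0.782) and Angptl4 (-0.06, adjusted p = 0.946).

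**Figure D3:**
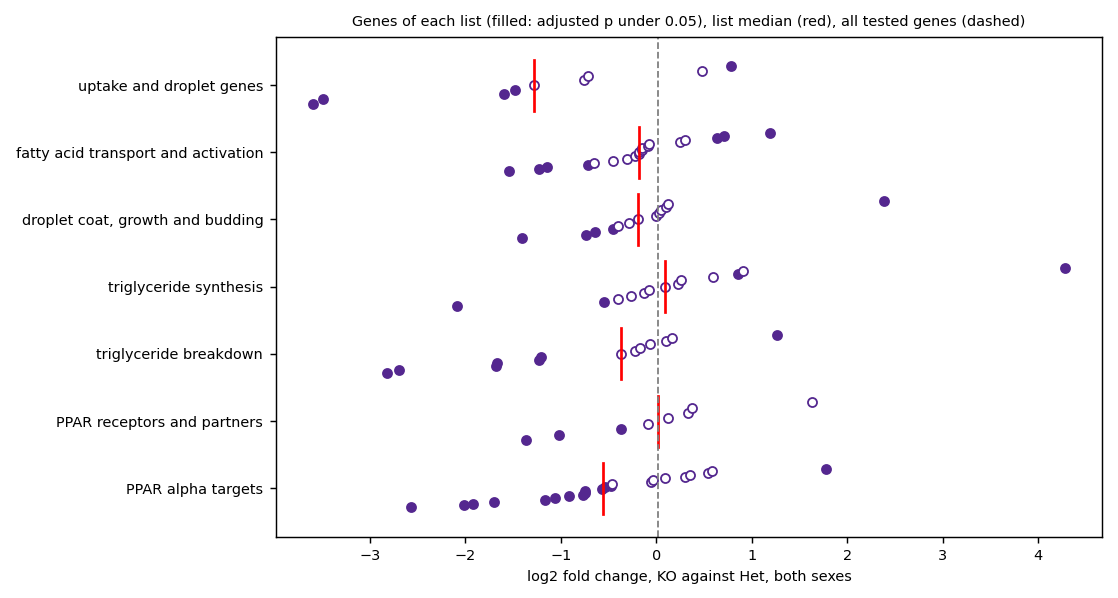
Log2 fold change of KO against Het over both sexes (x axis) for each tested gene of the 10 uptake and droplet genes and of 6 related lists (y axis); filled points have an adjusted p under 0.05, red lines are list medians and the dashed line is the median of all tested genes. The uptake and droplet genes have a median of -1.28 and PPARα targets of -0.56, beside 0.018 for all tested genes.

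Markers of other cells moved with genotype over both sexes too, and their part in the falls was not tested. The share of all tested genes called lower was 10.2%. Of 8 hepatocyte markers 1 was lower (Ttr, -0.81, adjusted p = 0.00422) and 7 did not pass, among them Alb (0.57, adjusted p = 0.0620) and Hnf4a (-0.06, adjusted p = 0.789). Their summed level was 68562 to 90537 CPM in Het livers and 84911 to 144613 CPM in KO livers. Of 10 stellate cell markers 4 were lower (Lrat, Reln, Hgf and Ecm1), with summed levels of 316 to 596 CPM in Het and 174 to 355 CPM in KO livers. None of 8 bile duct cell markers passed, with summed levels of 30.8 to 62.3 CPM in Het and 16.8 to 53.5 CPM in KO livers.

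**Figure D4:**
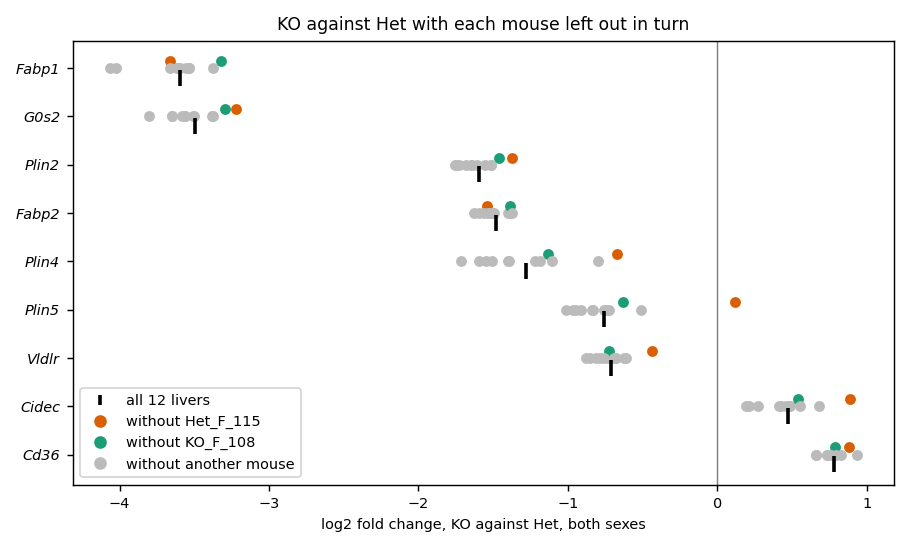
Log2 fold change of KO against Het over both sexes (x axis) for the 9 tested genes (y axis) with all 12 livers (black bars) and with each mouse left out in turn (points; Het_F_115 and KO_F_108 in colour). Fabp1, G0s2, Plin2, Fabp2 and Cd36 keep their side of 0 in every case, and Plin5 crosses to 0.12 without Het_F_115.

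The fall of Fabp1, Fabp2, Plin2 and G0s2 and the rise of Cd36 over both sexes kept their direction and passed in all 26 alternatives, which include each of the 12 mice left out in turn. The highest adjusted p among them was 0.0356 for Cd36, 0.0294 for Fabp1, 0.0133 for Plin2, 0.0036 for Fabp2 and 0.0031 for G0s2.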

How the data were processed

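Total RNA from 12 livers was depleted of ribosomal RNA and sequenced for the authors as stranded paired reads. The authors processed reads with nf-core/rnaseq (STAR 2.7.9a, GRCm39, GENCODE M34) and deposited estimated counts per gene from Salmon 1.10.1. They also deposited 2 scaled versions of the estimated counts, and TPM, which sum to one total in each liver and keep no depth. The strand setting of counting was not given in the sources used here. Estimated counts were rounded (12.0% of values were not exact whole numbers, with no tolerance allowed), filtered (5 or more reads once libraries were brought to the median size, in 3 livers or more, leaving 19350 of 57180 genes) and fitted in edgeR 4.0.16 (R 4.3.3) with TMM scaling, a mean per genotype and sex, the quasi-likelihood F test (prior count 2, robust) and Benjamini-Hochberg adjustment over all tested genes, called under 0.05. Contrasts were KO minus Het (both sexes, females, males), their difference (males minus females) and male minus female in Het. All 12 livers were in the same fit with a shared estimate of spread, so a liver left out can change calls in the other sex. Standard errors are the absolute log2 fold change divided by the square root of F. CPM used TMM-scaled library sizes. Samples were grouped by the labels' genotype and sex, and each is a separate mouse. No 2 libraries were duplicates. The script was tested on simulated data. Members and gene lists were chosen with earlier results of these data known. Named genes were all members, Xpa and Ercc8, genes chosen by role in each list, the 2 called genes of smallest p in each list, the 3 genes nearest in pattern to each called member and each member's nearest neighbours. A gene that this rule names is not reported here. Ercc8, for which the vector carries the human gene, was higher in KO by 1.62 on the log2 scale (adjusted p = 1.56e-04). Alternatives used DESeq2 1.42.0 and limma 3.58.1 on log2(TPM + 1) and log2(TPM + 0.1), other counts, filters, scalings and models, and each mouse left out. The edgeR setting of the older quasi-likelihood method was added after seeing the data. Assigned counts per liver bound the precision: a count of 0 allows up to 3 counts.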

Additional observations from a re-analysis of the deposited data

How the results depend on the processing

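Over both sexes, the 5 called members kept their direction and call in all 26 alternatives, and the count of called members was 5 to 6 with a mouse left out. No paired analysis was run: each replicate number names one mouse, and the labels do not say which mice shared a litter. Any effect of litter was therefore not modelled. Genes called with each mouse left out ran from 3194 to 4290 for both sexes, 844 to 2720 for females, 539 to 1876 for males, 4 to 90 for the difference between the sexes and 96 to 232 for sex in Het. Members called ran from 3 to 4 in females, 0 to 3 in males (0 without KO_M_118, 3 without KO_F_108), 0 for the difference and 1 for sex in Het. A fit of female livers alone called 486 genes and 2 members in females. DESeq2 called 2245 genes and 3 members in males, 159 genes for the difference and 553 for sex in Het. For the difference, 15 genes were called with counts not rounded and 15 with at least 10 reads in every liver, 18 with relative log expression, 14 with upper quartile scaling, 24 without robust estimation, 48 with limma on log2(TPM + 1) and 30 with log2(TPM + 0.1). For sex in Het, 101 were called with at least 10 reads in every liver. The Fabp1 call in females was lost in 10 alternatives (adjusted p 0.0572 to 0.109). With library size only, the median over all genes of the difference between the sexes moved from 0.016 to 0.16, and 813 genes were called higher and 1281 lower in females, against 1149 higher and 986 lower with TMM.

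Signs reversed for members that were not called, mostly with a mouse left out. Over both sexes, leaving out mice gave -1.01 to 0.12 for Plin5, the latter without Het_F_115. In females the ranges were -1.18 to 0.68 for Plin4 and -1.47 to 0.80 for Plin5, with the upper ends without Het_F_115. For Cidec in females it was -0.62 to 0.76, above 0 also without KO_F_108 (0.076) and KO_F_112 (0.089) and with limma on log2(TPM + 0.1) (0.21). Vldlr in males ran from -0.48 to 0.0057. The difference between the sexes ran from -0.35 to 0.21 for Cd36 (0.095 without Het_F_126, and 0.043 with library size only) and from -1.36 to 0.94 for Plin5 (-0.015 with limma on log2(TPM + 0.1)). In the sex contrast the ranges were -0.028 to 0.26 for Fabp1 (-0.078 with limma on either pseudocount), -0.27 to 0.13 for Fabp2 (0.074 without Het_M_137), -1.26 to 0.98 for Plin4 (0.16 without Het_M_137), -1.76 to 0.54 for Plin5 and -1.33 to 0.047 for Cidec. The cause of these reversals was not tested beyond the livers and settings named.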
